A study of Mus musculus with 6 samples.

Results

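The extracellular matrix of the mouse testis was followed through 44 genes that encode collagens, laminins and other basement membrane proteins, fibronectin and elastic fibre proteins, small proteoglycans, lysyl oxidases, integrin alpha subunits, and matrix proteases with their inhibitors. The genes were chosen by name, with earlier results of these data known, including those of Itga1, Loxl1 and Dcn. Every probe set annotated with exactly 1 of these symbols was taken. This gave 92 of the 45037 probe sets tested, for 42 of the 44 genes. Both probe sets of Loxl2 carry a further symbol and were left out, and Fbn1 was not analysed here. The samples were total RNA of whole testis from Phf13 knockout mice (3 arrays) and wild-type mice (3 arrays), all 5 weeks old and labelled with biotin for Affymetrix expression arrays. The sources used here do not state how the knockout was made, the strain or the number of animals behind the arrays. Each p-value therefore reflects the spread of these arrays alone, which may be technical. Phf13 codes for a chromatin protein with a PHD finger, which recognises methylated histone H3.

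In the testis a basement membrane of type IV collagen, laminin, nidogen and perlecan separates the seminiferous epithelium from a sheath of peritubular myoid cells. Both Sertoli and myoid cells contribute to this membrane. Outside it, fibrillar collagens, type VI collagen, fibronectin and small proteoglycans such as decorin fill the interstitium, and lysyl oxidases crosslink collagen and elastin. Cells attach through integrins, dimers of an alpha and a beta subunit whose alpha subunit largely sets which matrix protein is bound.

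Every value below is a log2 expression value of mixed tissue, in which fewer cells of a type and less RNA per cell cannot be told apart. The Phf13 probe set stood at 6.71, 6.60 and 6.55 on the knockout arrays, against 9.55, 9.47 and 9.56 on the wild-type arrays. Spermatid markers, at a list mean between 12.38 and 12.45 on all arrays, lay far above the array medians. The array medians were 5.22 to 5.28. By the 18S ribosomal RNA control probe sets the arrays fell into a first set of knockout 1, wild type 1 and wild type 2, with means between 12.03 and 12.67, and a second set of knockout 2, knockout 3 and wild type 3, with means between 9.69 and 10.71. For the actin controls, 3' minus 5' values were 0.75 to 0.89 in the first set and 0.56 to 0.59 in the second. Differences inside each set are given beside the results, with knockout 1 against the mean of 2 wild-type arrays in the first set and the mean of 2 knockout arrays against wild type 3 in the second. Wild type 3 stood apart for the matrix genes, being the lowest of the 6 arrays for 23 of the 42 genes. Knockout 3 was the highest for 19. On wild type 3, 9 of the 42 genes lay above their own mean over the 6 arrays, beside 57.5% of all genes. On knockout 3, 34 of the 42 did, beside 52.2% of all genes.

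Of the 92 probe sets, 0 passed as higher and 2 passed as lower in knockout, at limma's adjusted p under 0.05 over all probe sets. Those 2 belong to Itga1 and Loxl1. Among all 45037 probe sets, 0.0999% passed in either direction, 0.0555% as higher and 0.0444% as lower. Because results of Itga1 and Loxl1 were known when the genes were chosen, these shares lend the 2 calls no support. At an unadjusted p under 0.05, 14 of the 92 were higher and 4 lower, beside 6.81% and 8.31% of all probe sets. With the brightest probe set standing for each gene, 30 of 42 genes had a positive difference, 11 a negative one and 1 a difference of 0. Of all 18193 genes, 9329 had a positive difference, 8708 a negative one and 156 a difference of 0, the background for all such counts below. Groups did not overlap for 6 genes as higher and 4 as lower, beside 9.92% and 13.5% of all genes. The median difference of the 42 was 0.14 on the log2 scale, against 0.01 over 18193 genes. Without wild type 3 the median was 0.06, with 23 genes above 0 and 18 below.

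**Figure D1:**
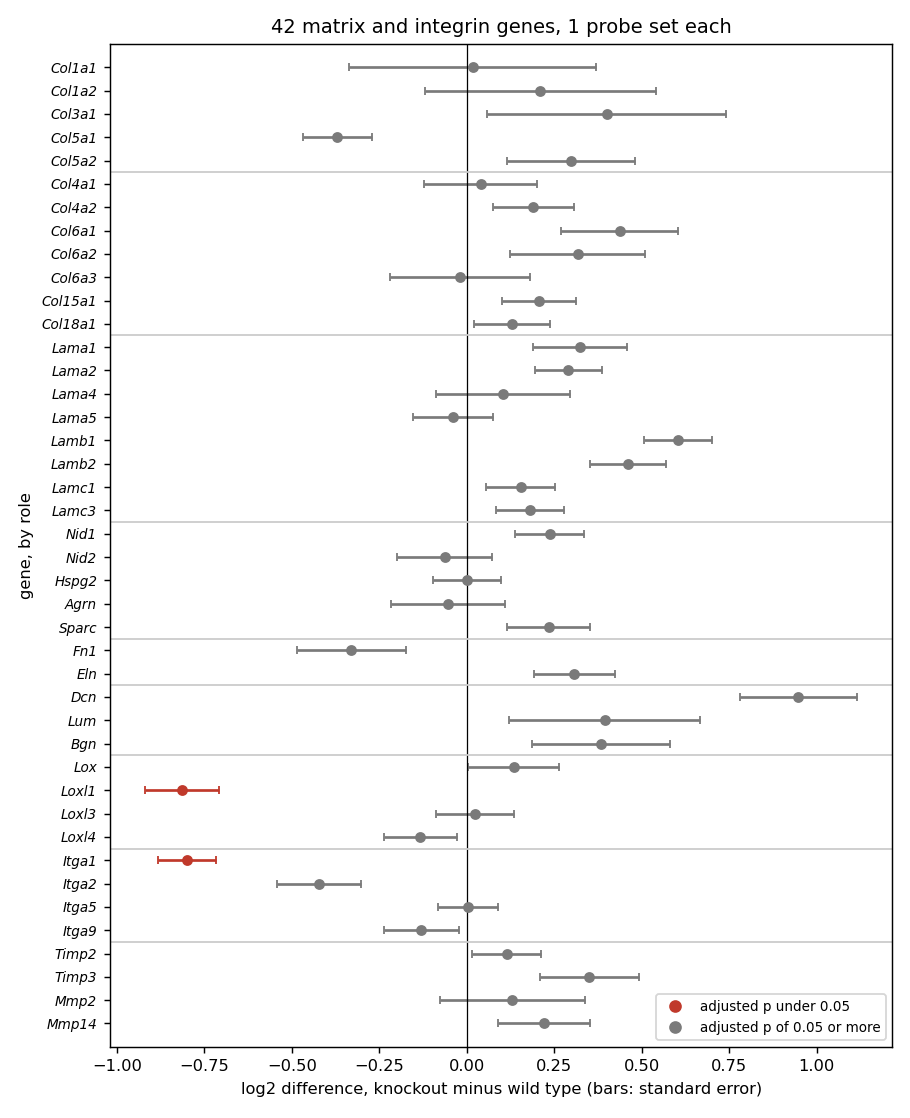
Log2 difference between knockout and wild type (horizontal axis) for 42 matrix and integrin genes (vertical axis), each by its brightest probe set and grouped by role, with the limma standard error as bars. Itga1 at -0.80 and Loxl1 at -0.81 are the only points past the adjusted threshold, and the fibrillar collagens Col1a1, Col1a2 and Col3a1 have the widest bars.

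Of the 4 integrin alpha subunit genes among the 42, Itga1 fell in knockout testis and the other three did not pass. Itga1 pairs with the integrin beta 1 chain to form a receptor for collagens, including type IV collagen of basement membranes. Its brighter probe set stood at 7.45, 7.55 and 7.53 on the knockout arrays, against 8.36, 8.28 and 8.29 on the wild-type arrays. The knockout arrays all lay below the wild-type arrays, and the gap was wide against the spread inside each genotype. The mean was 7.51 ± 0.05 in knockout and 8.31 ± 0.04 in wild type (SD, n = 3 each). The difference of -0.80 (SE 0.08, limma adjusted p = 0.0153) is a 1.74-fold lower level. Inside the first array set it was -0.87 and inside the second -0.75. The other Itga1 probe set, at 2.27 to 2.58 in knockout and 2.26 to 2.41 in wild type, was below the lower quartile of all probe sets (3.70) on every array and differed by 0.08. The call was lost in 6 of 14 alternative fits, with adjusted p between 0.0032 and 0.156, while the difference stayed between -0.82 and -0.76.

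Itga2 encodes the alpha subunit of the other main collagen-binding integrin and is the neighbour of Itga1 on chromosome 13 in the RefSeq table. It stood at 6.92, 7.08 and 7.10 in knockout and at 7.66, 7.25 and 7.46 in wild type. These groups did not overlap either, but the wild-type arrays spread more widely than those of Itga1. The difference of -0.42 (SE 0.12) did not pass (limma adjusted p = 0.219), and was -0.54 and -0.37 inside the sets. Of the adjoining genes, Pelo, which RefSeq lists next to Itga1, differed by -0.15 and the 2 probe sets of Mocs2, next to Itga2, by 0.06 and 0.12. These neighbours were looked at after the values of Itga1 and Itga2 had been seen. Itga5, the alpha subunit of the fibronectin receptor, differed by 0.00 with a 95% interval from -0.19 to 0.20. Itga9, a subunit that binds tenascin C and other ligands, stood at 5.02, 4.79 and 4.79 in knockout and at 5.13, 4.98 and 4.88 in wild type, groups that overlap. Its difference was -0.13.

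Upstream sequence of both integrin genes is given because Itga1 carries the smaller adjusted p of the called genes and Itga2 lies beside it. For contrast, the same window is shown for Lamb1 and Lamb2, the laminin genes with the smallest p, which differed in the positive direction. Each run holds the 250 bases before the RefSeq start of the gene in assembly GRCm38.p6, read 5′ to 3′ on the gene's own strand. Capitals mark matches, on either strand, to the TATA box TATAAA, the CCAAT box CCAAT or the GC box GGGCGG. The windows are chr13:115101965-115102214 and chr13:114932101-114932350 on the minus strand, and chr12:31265043-31265292 and chr9:108479612-108479861 on the plus strand.
Itga1: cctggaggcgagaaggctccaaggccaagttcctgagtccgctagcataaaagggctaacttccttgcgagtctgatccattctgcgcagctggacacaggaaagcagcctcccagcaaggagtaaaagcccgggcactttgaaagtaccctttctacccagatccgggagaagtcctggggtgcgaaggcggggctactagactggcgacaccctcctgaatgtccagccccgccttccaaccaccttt
Itga2: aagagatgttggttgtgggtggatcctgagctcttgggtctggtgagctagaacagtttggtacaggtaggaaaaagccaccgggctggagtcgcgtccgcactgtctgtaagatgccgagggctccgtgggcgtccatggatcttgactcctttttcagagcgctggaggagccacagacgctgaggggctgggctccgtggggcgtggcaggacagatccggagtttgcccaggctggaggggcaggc
Lamb1: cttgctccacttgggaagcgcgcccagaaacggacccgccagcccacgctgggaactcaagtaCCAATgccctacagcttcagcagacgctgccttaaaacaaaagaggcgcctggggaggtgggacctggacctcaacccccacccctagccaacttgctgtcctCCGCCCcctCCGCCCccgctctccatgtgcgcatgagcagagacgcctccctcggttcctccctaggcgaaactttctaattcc
Lamb2: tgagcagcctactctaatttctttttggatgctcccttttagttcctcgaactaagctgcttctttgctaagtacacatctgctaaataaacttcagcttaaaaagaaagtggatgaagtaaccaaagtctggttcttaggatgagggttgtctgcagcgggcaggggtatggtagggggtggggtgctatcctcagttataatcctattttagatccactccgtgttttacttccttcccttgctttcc

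No overlapping matches of different motifs were found in these windows. Lamb1 holds 1 CCAAT box and 2 GC boxes, and the Itga1, Itga2 and Lamb2 windows hold none of the 3 motifs. Over all 32851 windows of this length in the table, 12.4% hold the TATA box, 33.8% the CCAAT box and 32.7% the GC box. The table holds 31 windows for 28 of the 44 matrix genes. Of these, 1 holds the TATA box, 8 the CCAAT box and 19 the GC box. The G and C share was 57.6% for Itga1, 60.8% for Itga2, 62% for Lamb1 and 43.6% for Lamb2.

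Of the lysyl oxidases, which oxidise lysines of collagen and elastin so that crosslinks form, only Loxl1 passed the threshold. Loxl1 is best known for its part in elastic fibre assembly. Its brighter probe set stood at 6.75, 6.97 and 6.71 in knockout and at 7.74, 7.58 and 7.55 in wild type. All knockout arrays lay below all wild-type arrays. The mean was 6.81 ± 0.14 in knockout and 7.62 ± 0.10 in wild type (SD, n = 3 each), and the difference of -0.81 (SE 0.10, limma adjusted p = 0.0423) is a 1.76-fold lower level. It was -0.91 inside the first array set and -0.71 inside the second. The other Loxl1 probe set, at 5.30, 5.04 and 5.01 in knockout and at 5.41, 5.23 and 5.21 in wild type, overlapped between genotypes and differed by -0.17 (limma adjusted p = 0.509). The call was lost in 8 of 14 alternative fits (adjusted p from 0.0122 to 0.264). The difference ran from -0.89 to -0.74 over them.

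The remaining lysyl oxidases had no difference past the threshold. Lox, the founding member of the family, stood at 4.79, 4.97 and 5.02 in knockout and at 4.96, 4.89 and 4.53 in wild type, and its 3 probe sets differed by 0.13, -0.17 and -0.02. Loxl4 stood at 4.61, 4.43 and 4.68 in knockout and at 4.59, 4.71 and 4.82 in wild type. Its probe sets split, at -0.13 and 0.17. Loxl3 differed by 0.02, with a 95% interval from -0.23 to 0.28. The groups overlapped for all these probe sets.

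Elastin itself had groups that did not overlap on its brighter probe set. Eln, the core of elastic fibres, stood at 6.54, 6.61 and 6.71 in knockout and at 6.42, 6.43 and 6.09 in wild type. Its difference of 0.31 (SE 0.12) did not pass (limma adjusted p = 0.281) and was 0.20 without wild type 3, and the other Eln probe set differed by 0.02. Fn1, which encodes fibronectin, a ligand of Itga5, stood at 6.72, 6.73 and 7.25 in knockout and at 7.36, 7.25 and 7.08 in wild type. Knockout 3 lay among the wild-type arrays, and the difference of -0.33 (SE 0.16) did not pass (limma adjusted p = 0.36).

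Laminins, the cross-shaped trimers of an alpha, a beta and a gamma chain that organise basement membranes, had positive differences in 7 of 8 genes. None passed over all probe sets. Their median difference was 0.23, and 4 of 8 were higher at an unadjusted p under 0.05, beside 8.58% of all genes. These 4 belong to the 9 of the 42 genes higher at that threshold, a count chosen after seeing the data. Lamb1, a beta chain of most basement membranes, stood at 8.13, 8.16 and 8.34 in knockout and at 7.57, 7.70 and 7.55 in wild type. The groups lay well apart, with means of 8.21 ± 0.11 in knockout and 7.61 ± 0.08 in wild type (SD, n = 3 each). The difference of 0.60 (SE 0.10) is a 1.52-fold higher level with limma's adjusted p = 0.0955. It was 0.50 and 0.70 inside the array sets. The other Lamb1 probe sets differed by 0.55, 0.24 and 0.02, and the last of these was below the lower quartile of all probe sets. The brightest passed in 4 of 14 alternative fits, among them the fit without wild type 3 (adjusted p = 0.0388).

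Lamb2, the beta chain known from the glomerulus and the neuromuscular junction, stood at 6.30, 6.51 and 6.57 in knockout and at 5.95, 5.91 and 6.14 in wild type. Its groups did not overlap, and the difference was 0.46 (SE 0.11, limma adjusted p = 0.188), with 0.37 and 0.40 inside the sets. Lama2, the alpha chain of muscle basement membranes, stood at 7.89, 8.12 and 8.03 in knockout and at 7.76, 7.76 and 7.65 in wild type. Its difference of 0.29 (limma adjusted p = 0.247) was 0.13 in the first set and 0.43 in the second. Lama1 differed by 0.32, Lamc3 by 0.18, Lamc1 by 0.15 and Lama4 by 0.10. Lama5 differed by -0.04, with a 95% interval from -0.30 to 0.22. Lama1 was at -0.01 in the first array set and at 0.59 in the second.

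Sertoli cell markers, genes of a cell type that contributes laminin to the tubule wall, were measured beside the laminins. Their list mean over 17 of 18 listed genes ran from 8.75 to 8.90 in knockout and from 8.47 to 8.51 in wild type. Of the 17 genes 16 had a positive difference, Inhbb at 0.41 and Fshr at 0.45 among them. The median difference of the list was 0.40, with 0.305 in the first array set and 0.355 in the second. At an unadjusted p under 0.05, 10 of the 17 were higher and 0 lower, beside 8.58% and 8.72% of all genes. Over all probe sets 0 passed in limma. Markers of peritubular myoid and other smooth muscle cells ran from 7.95 to 8.12 in knockout and from 7.82 to 7.90 in wild type. Of these 8 genes 7 were above 0, with Acta2, the actin of smooth muscle, at 0.49. At an unadjusted p under 0.05, 3 of the 8 were higher and 0 lower. Their median difference was 0.005 in the first array set and 0.24 in the second. The part of these cell types in the laminin values was not tested.

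**Figure D2:**
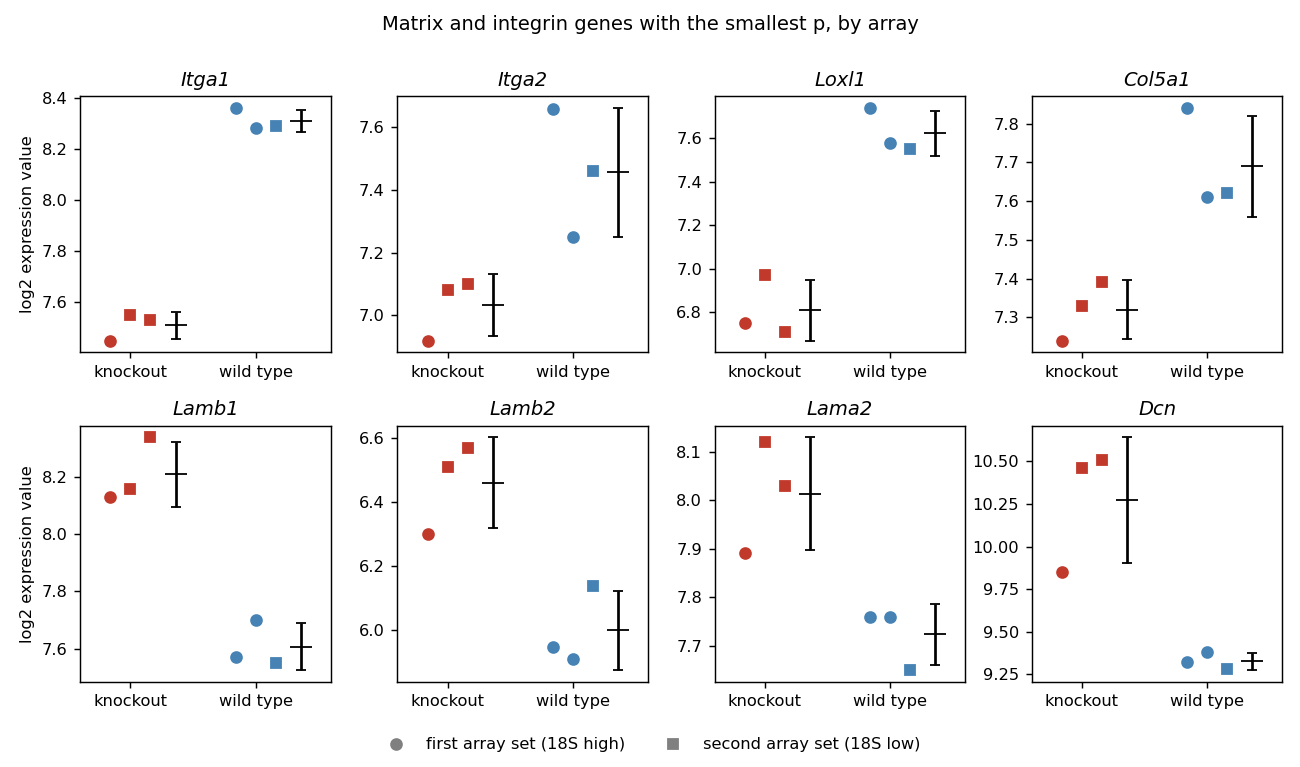
Log2 expression value (vertical axis, own range in each panel) of 8 genes on the 3 knockout arrays (left, red) and the 3 wild-type arrays (right, blue), with the mean and SD of each genotype as black bars. Circles are arrays of the first set and squares of the second. The knockout arrays lie below the wild-type arrays for Itga1, Itga2, Loxl1 and Col5a1 and above them for Lamb1, Lamb2, Lama2 and Dcn.

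The remaining basement membrane genes had no difference past the threshold. Nid1, which links laminin to type IV collagen, stood at 7.78, 7.77 and 7.99 in knockout and at 7.56, 7.70 and 7.57 in wild type on its brightest probe set. The groups did not overlap and the difference was 0.24 (limma adjusted p = 0.311), but the other Nid1 probe sets differed by -0.30 and 0.06. Nid2, its homologue, stood at 5.97, 6.15 and 6.23 in knockout and at 6.14, 6.44 and 5.96 in wild type, a difference of -0.06. Hspg2, which encodes perlecan, averaged 8.16 ± 0.13 in knockout and 8.16 ± 0.06 in wild type (SD, n = 3 each), and its 95% interval ran from -0.22 to 0.22. Agrn, which encodes agrin, differed by -0.05. Hspg2, Agrn and the collagen gene Col15a1, which differed by 0.21, lie on chromosome 4, as Phf13 does.

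Sparc encodes a calcium-binding glycoprotein that binds collagen. It stood at 11.09, 11.36 and 11.37 in knockout and at 11.15, 11.10 and 10.87 in wild type, which overlap, with a difference of 0.23 (limma adjusted p = 0.388) that was 0.15 without wild type 3. Col4a1 and Col4a2, the chains of the main type IV collagen network, differed by 0.04 and 0.19, with 95% intervals from -0.33 to 0.41 and from -0.08 to 0.46. The multiplexin Col18a1, whose fragment is endostatin, differed by 0.13. Col15a1, the related multiplexin, stood at 5.23, 4.89 and 5.10 in knockout and at 4.88, 4.91 and 4.81 in wild type. Knockout 2 lay among the wild-type arrays, and the difference of 0.21 did not pass (limma adjusted p = 0.398).

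None of the 5 fibrillar collagens of the interstitium passed the threshold, and 3 of them varied widely between wild-type arrays. Col1a1, a chain of type I collagen, stood at 7.10, 6.83 and 6.80 in knockout and at 7.14, 7.59 and 5.95 in wild type. Col1a2, its partner chain, stood at 9.93, 10.02 and 10.15 in knockout and at 10.20, 10.36 and 8.91 in wild type. Col3a1, the type III collagen gene, stood at 9.82, 10.13 and 10.21 in knockout and at 10.01, 10.22 and 8.73 in wild type. For all 3 genes wild type 3 was the lowest of the 6 arrays and wild type 2 the highest. The SD among wild-type arrays was 0.85, 0.79 and 0.81, against 0.17, 0.11 and 0.21 among knockout arrays. Differences over all arrays were 0.02, 0.21 and 0.40, with 95% intervals from -0.79 to 0.82, from -0.54 to 0.96 and from -0.38 to 1.18. The sign differed between array sets, at -0.27, -0.35 and -0.29 in the first and at 0.86, 1.18 and 1.44 in the second. Without wild type 3 the differences were -0.46, -0.25 and -0.06.

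**Figure D3:**
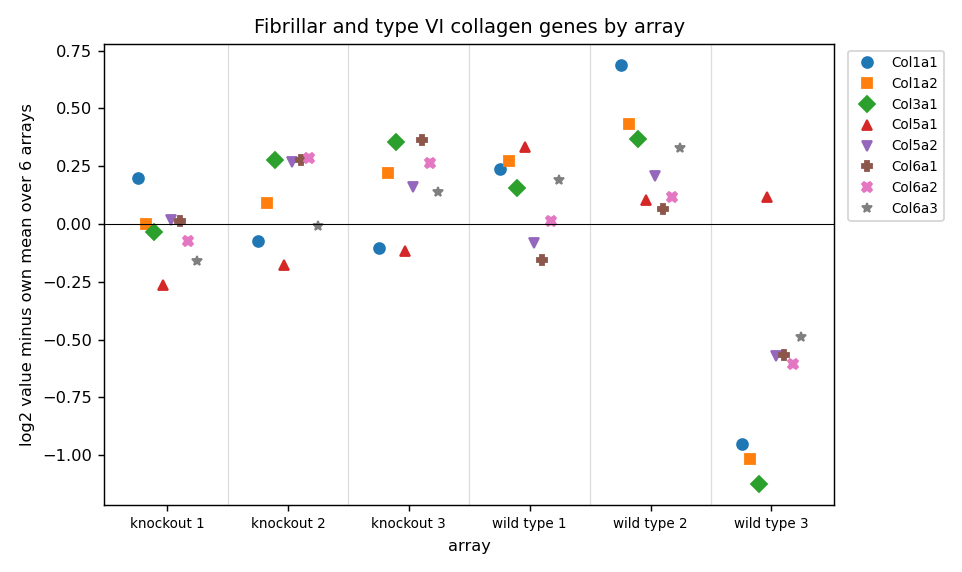
Log2 value of each fibrillar and type VI collagen gene minus its own mean over the 6 arrays (vertical axis), for the 3 knockout and the 3 wild-type arrays (horizontal axis), 1 symbol per gene. Wild type 3 lies lowest for all of them except Col5a1, whose knockout arrays lie below its wild-type arrays.

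Col5a1 encodes a chain of type V collagen, which sits inside type I fibrils and limits their diameter, and it differed from that pattern. It stood at 7.24, 7.33 and 7.39 in knockout and at 7.84, 7.61 and 7.62 in wild type. The knockout arrays all lay below the wild-type arrays, and wild type 3 lay with the other wild-type arrays. The difference was -0.37 (SE 0.10) and did not pass (limma adjusted p = 0.21). It was -0.49 and -0.26 inside the sets. The other Col5a1 probe sets differed by 0.12 and -0.13. Col5a2, the other type V chain measured, stood at 6.06, 6.31 and 6.20 in knockout and at 5.96, 6.25 and 5.47 in wild type, with wild type 3 again the lowest, and differed by 0.30. Without wild type 3 that difference was 0.09 and without wild type 2 it was 0.47, and it was -0.04 in the first array set and 0.79 in the second.

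Type VI collagen forms beaded filaments around cells. Col6a1 stood at 7.36, 7.62 and 7.71 in knockout and at 7.19, 7.41 and 6.78 in wild type. Its groups overlapped, and the difference of 0.44 (SE 0.17, limma adjusted p = 0.285) was 0.06 in the first array set and 0.89 in the second. Col6a2 stood at 7.73, 8.09 and 8.07 in knockout and at 7.82, 7.92 and 7.20 in wild type, and differed by 0.32. Without wild type 3 the differences of Col6a1 and Col6a2 were 0.26 and 0.09. Col6a3 differed by -0.02 with a 95% interval from -0.48 to 0.44. None of the 7 network, beaded filament and multiplexin collagen genes had groups that did not overlap, where 23.5% of all genes did.

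Dcn had the largest positive difference of the 42 genes. It encodes decorin, a small leucine-rich proteoglycan of fibroblasts that binds type I collagen fibrils and TGF-beta. The brighter probe set stood at 9.85, 10.46 and 10.51 in knockout and at 9.32, 9.38 and 9.28 in wild type. All knockout arrays lay above all wild-type arrays, and knockout 1 was the lowest of its genotype. The mean was 10.27 ± 0.37 in knockout and 9.33 ± 0.05 in wild type (SD, n = 3 each). The difference of 0.95 (SE 0.17) is a 1.93-fold higher level, short of the threshold (limma adjusted p = 0.129). It was 0.50 in the first array set and 1.21 in the second. Dcn passed in 4 of 14 alternative fits, with adjusted p = 0.00921 without knockout 1 and 0.0489 without wild type 3. Unlike Col1a1, Col1a2 and Col3a1, wild type 3 lay close to the other wild-type arrays. The other Dcn probe set was below the lower quartile of all probe sets and differed by 0.11.

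The related proteoglycans overlapped between genotypes. Lum, which encodes lumican, stood at 5.27, 6.36 and 6.29 in knockout and at 5.31, 5.68 and 5.75 in wild type. Knockout 1 was the lowest array, so the groups overlapped, and the difference of 0.39 (SE 0.27) was -0.23 in the first set and 0.57 in the second, and ran from 0.20 without knockout 2 to 0.74 without knockout 1. Bgn, the biglycan gene, stood at 8.08, 8.26 and 8.34 in knockout and at 8.02, 8.16 and 7.35 in wild type. Its difference of 0.38 (limma adjusted p = 0.397) was -0.01 in the first set and 0.95 in the second, and was 0.14 without wild type 3.

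Markers of stromal fibroblasts were measured beside these genes. Their list mean over 7 of 8 listed genes was 6.62, 6.92 and 7.11 on the knockout arrays, against 6.47, 6.41 and 6.40 on the wild-type arrays. Of the 7 genes 6 had a positive difference, with Gsn at 0.72 and Pdgfra at 0.55. The 1 gene with a negative difference, of -0.21, had all knockout arrays below all wild-type arrays. At an unadjusted p under 0.05, 4 of the 7 were higher and 0 lower, beside 8.58% and 8.72% of all genes. Over all probe sets 0 passed in limma. Among knockout arrays the list was lowest on knockout 1, as Dcn was. Knockout 1 was also the lowest knockout array for the Sertoli, myoid, Leydig, endothelial, leukocyte, adipose and spermatocyte lists. For the spermatid and epididymis lists it was not. The fibroblast list differed little between the wild-type arrays, as the Sertoli list did, while Col1a1, Col1a2 and Col3a1 spread widely there. Leukocyte markers had a list mean from 5.97 to 6.68 in knockout and from 6.02 to 6.28 in wild type, with all 15 measured genes above 0. Their median difference was -0.135 in the first array set and 0.30 in the second. At an unadjusted p under 0.05, 0 of the 15 were higher, beside 8.58% of all genes. Adipose tissue markers ran from 5.73 to 5.98 in knockout and from 4.97 to 5.53 in wild type over 5 of 7 listed genes. Their differences ran from 0.11 to 2.21 with a median of 0.34, so the list mean leans on the highest gene. At an unadjusted p under 0.05, 3 of the 5 were higher. Endothelial markers ran from 5.28 to 5.41 in knockout and from 5.29 to 5.35 in wild type. The part of these cell types in the proteoglycan and collagen values was not tested.

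The 4 genes of matrix proteases and their inhibitors had positive differences on their brightest probe sets, none past the threshold. Timp3, a matrix-bound inhibitor of metalloproteinases, stood at 7.47, 7.84 and 8.00 in knockout and at 7.36, 7.54 and 7.36 in wild type, and wild type 2 lay above knockout 1. Its 4 probe sets differed by 0.35, 0.26, 0.12 and 0.30, and the brightest had a limma adjusted p = 0.301. Timp2, the inhibitor that also takes part in Mmp2 activation, stood at 9.96, 10.16 and 10.23 in knockout and at 9.97, 10.01 and 10.03 in wild type. That probe set differed by 0.11. A second Timp2 probe set, at 9.93, 9.85 and 9.93 in knockout and at 9.63, 9.56 and 9.53 in wild type, had groups that did not overlap and differed by 0.33 (limma adjusted p = 0.198). The 6 Timp2 probe sets ran from -0.16 to 0.33.

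Mmp14, the membrane-bound metalloproteinase that activates Mmp2, stood at 7.69, 7.63 and 7.60 in knockout and at 7.65, 7.47 and 7.14 in wild type, with wild type 3 the lowest. It differed by 0.22 (limma adjusted p = 0.464), by 0.08 without wild type 3 and by 0.34 without wild type 1. Mmp2, a gelatinase, averaged 5.74 ± 0.10 in knockout and 5.61 ± 0.47 in wild type (SD, n = 3 each). Its difference was 0.13 over all arrays and -0.14 without wild type 3.

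Inside the first array set 16 of the 42 genes had a positive and 26 a negative difference, with a median of -0.03 (-0.01 over all genes). Inside the second 32 were positive and 10 negative, with a median of 0.41 (-0.02 over all genes). In both sets alike, 13 genes were above 0 and 7 below. The first set has a single knockout array and the second a single wild-type array, so no test was made inside a set.

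**Figure D4:**
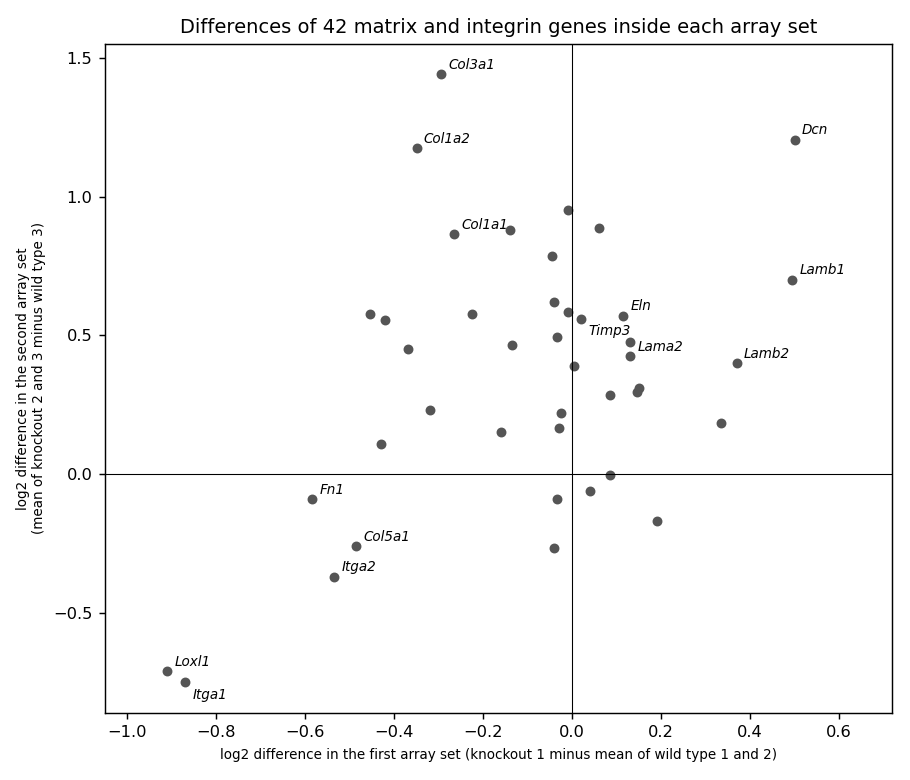
Log2 difference between knockout and wild type of 42 matrix and integrin genes in the first array set (horizontal axis) and in the second (vertical axis), 1 point per gene. Itga1 and Loxl1 lie lowest in both sets, Dcn and Lamb1 lie furthest right and above 0, and Col1a1, Col1a2 and Col3a1 lie above 0 in the second set only.

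Probe sets of 1 gene did not always go the same way. Of the 42 genes, 31 had more than 1 probe set. Of their 50 further probe sets, 32 had the sign of the brightest one, 17 the opposite sign and 1 belonged to Hspg2, whose brightest differed by 0. Of the 92 probe sets 14 lay below the lower quartile of all probe sets. For none of the 42 genes was the brightest probe set below it. Of the brightest probe sets 18 lay above the upper quartile of 7.30.

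Among 188 other matrix genes on the arrays, taken from 8 lists, 0 passed in either direction by limma. At an unadjusted p under 0.05, 33 were higher and 8 lower, beside 8.58% and 8.72% of all genes, and their median difference was 0.09. Of 28 other collagens, 18 were above 0, 9 below and 1 at 0. Col2a1, the cartilage collagen, stood at 6.21, 6.19 and 6.79 in knockout and at 7.16, 7.30 and 7.15 in wild type, a difference of -0.81 (limma adjusted p = 0.153). Col4a5, an X-linked chain of specialised basement membranes, differed by 0.63 with groups that did not overlap, at 6.47, 6.77 and 6.71 in knockout and at 5.94, 6.25 and 5.87 in wild type. Of 13 other laminins and basement membrane partners 8 were above 0, with Lama3 at 0.41 and a median difference of 0.04. At an unadjusted p under 0.05, 1 of the 13 was higher.

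Of 32 other integrins and matrix receptors 26 were above 0 and 6 below. Itga6, an alpha subunit of laminin receptors, differed by 0.36, at 7.23, 7.34 and 7.37 in knockout and at 6.93, 6.96 and 6.97 in wild type. Itga7, a laminin-binding subunit of muscle, differed by -0.37, at 5.99, 6.14 and 6.24 in knockout and at 6.50, 6.36 and 6.61 in wild type. Parva, an adaptor between integrins and actin, differed by -0.51 and Vcl, the vinculin gene, by 0.36. The groups did not overlap for any of these 4 genes, and limma's adjusted p ran from 0.14 to 0.22. Of 30 other glycoproteins and matricellular proteins 20 were above 0, among them Sparcl1, the Sparc homologue, at 0.85 and Mgp, an inhibitor of calcification, at 0.76, while the microfibril gene Fbn2 differed by -0.49.

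Of 23 other proteoglycans 17 were above 0, with Gpc3 at 0.50 and Ogn at 0.77. Of 21 enzymes that fold or crosslink collagen 18 were above 0, with Plod2, a lysyl hydroxylase, at 0.46. Of 29 other proteases and inhibitors 20 were above 0, with Adamts5, which cleaves aggrecan and versican, at 0.76. Of 12 TGF-beta and PDGF genes that regulate the matrix 9 were above 0. In that list Pdgfa, a growth factor for testis mesenchyme, stood at 7.59, 7.66 and 7.55 in knockout and at 8.18, 8.21 and 8.08 in wild type, and its difference of -0.56 had the smallest adjusted p of the 188 genes (limma adjusted p = 0.0844).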

How the data were processed

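Expression in whole testis was measured on 6 Affymetrix arrays, 3 per genotype. The authors deposited 1 log2 value per probe set, which came from Affymetrix Expression Console 1.4.1, as the labels name it per the submitters' processing notes. The values themselves show the log2 scale. Summarization, normalization and genome build are not stated in these sources, and no depth applies; the number of arrays limits the precision.

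Of 45101 probe sets, 64 controls were left out. Symbols came from the platform annotation. The values were fitted on genotype with limma 3.58.1 (lmFit, eBayes, two-sided) in R 4.3.3, with Benjamini-Hochberg adjustment over 45037 probe sets and a threshold of 0.05. SE and 95% intervals are moderated. The procedure was tested on simulated data. Genes and lists were chosen with earlier results of these data known, including those of Itga1, Loxl1 and Dcn. By the naming rule, values on every array are given for called genes and for the 3 genes of each role with the smallest p; Col1a1, Col1a2 and a second Timp2 probe set were added after their values were seen. From other lists at most 4 genes, and from marker lists at most 2, were named. Myoid, stromal, Leydig, endothelial, leukocyte, adipose, spermatocyte, spermatid, epididymis and Sertoli marker lists were measured; array sets were defined by 18S controls. Promoter sequences are from RefSeq, GRCm38.p6.

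Alternatives were blocks for replicate number, title code runs and array set, each array left out, array weights, moderation with an intensity trend, median centring, quantile normalization, a restriction to probe sets above the median, a threshold of 0.1 and averaging over a gene's probe sets.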

Additional observations from a re-analysis of the deposited data

How the results depend on the processing

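The median difference of the 42 genes stayed above 0 in all alternatives, between 0.06 and 0.23. The differences inside the array sets are not among these alternatives. There the median was -0.035 in the first set and 0.41 in the second. The count of matrix probe sets called higher (0) was 6 with array weights (Lama1, Lama2, Lamb1, Lamb2, Dcn and Timp2), 2 with an intensity trend, 1 among probe sets above the median level and 1 at an adjusted p under 0.1. The count called lower (2) was 0 with the replicate block and with title code runs as a block, and 1 with the array sets as a block. Each array left out in turn gave 0 to 2 higher and 0 to 2 lower. Both Itga1 and Loxl1 missed the threshold without knockout 2, knockout 3, wild type 1 or wild type 2. Of these 2 genes only Itga1 passed without knockout 1, and both passed without wild type 3. All these fits had fewer arrays than the main fit. Over all probe sets, 25 higher and 20 lower became 1654 and 1532 with array weights, 66 and 44 with an intensity trend, 12 and 4 with title code runs, and 8 to 178 and 4 to 998 with an array left out, the highest of both without wild type 3. The count lower was 6 with the replicate block and 42 among probe sets above the median level. The labels state no link between same-numbered arrays beyond the number. Deviations of same-numbered arrays from the genotype means correlated at 0.26, 0.07 and 0.12. Knockout 1 correlated best with wild type 1, and knockout 2 and knockout 3 with wild type 3. Whether same-numbered arrays form pairs was not tested. With an array left out, the difference of Col3a1 ran from -0.062 without wild type 3 to 0.68 without wild type 2, and that of Nid2 from -0.17 without wild type 3 to 0.067 without wild type 2, being 0.01 without knockout 1. The causes were not tested. At an unadjusted p under 0.05, 9 of the 42 genes were higher with all arrays (8.58% of all genes), a count chosen after seeing the data. It was 4 without knockout 2 (5.59%), without knockout 3 (5.21%) or without wild type 3 (9.26%). Without knockout 1 it was 11 (12.7%), without wild type 1 it was 9 (5.94%) and without wild type 2 it was 10 (5.93%).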

Other observations

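Markers of germ cells were measured beside the matrix genes. Spermatocyte markers had a list mean from 10.03 to 10.10 in knockout and from 10.09 to 10.24 in wild type. Of these 11 genes, 4 had a positive and 7 a negative difference, with a median of -0.09 and a highest of 0.12. At an unadjusted p under 0.05, 4 were lower in knockout and 0 higher, beside 8.72% and 8.58% of all genes. Over all probe sets 0 passed in limma. Aurkc differed by -0.42 and Ccna1 by -0.28. Spermatid markers ran from 12.41 to 12.42 in knockout and from 12.38 to 12.45 in wild type. Leydig cell markers ran from 8.56 to 8.91 in knockout and from 8.44 to 8.64 in wild type, with all 8 measured genes above 0 and Hsd3b1 at 0.56. The median difference of the Leydig list was -0.08 in the first array set and 0.12 in the second. Epididymis markers, which a dissection can carry, ran from 4.20 to 4.33 in knockout and from 4.04 to 4.33 in wild type over 4 of 9 listed genes.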
